A study of Mus musculus with 4 samples.

Results

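Long noncoding RNAs rich in MILI-bound small RNAs were examined in mouse testis. The 8 genes were 1700001L05Rik, 1700020I14Rik, B230354K17Rik, 9330102E08Rik, Gm5113, Gm49654, 1700029M20Rik and Gm2762. A sequence was assigned to one of them when it matched a GENCODE M21 transcript of that gene exactly, in sense or antisense, and matched no other gene. This rule gave 11062 of 4906138 distinct sequences, or 0.225% of the list (exact Clopper-Pearson 95% interval 0.221–0.230%). The libraries, 4 in all, hold RNA that came down with an antibody to MILI, and the testes were those of C57BL/6 animals aged 14 days post partum (dpp). Of the libraries, 2 came from heterozygous Tdrd9+/- mice, the controls, and 2 from Tdrd9-/- mice, which lack the RNA helicase TDRD9. The gel slice taken for sequencing was labelled as about 28 to 30 nt. Whether animals were pooled is not given in the labels. The list pools the 4 libraries and gives each sequence once with its mm9 position, with no read counts and no library labels. Genotypes were therefore not compared, there is no replicate error, and the intervals below cover counting error over distinct sequences only.

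piRNAs are small RNAs bound by PIWI proteins, among them MILI (Piwil2), and guide the silencing of transposons in germ cells. Primary piRNAs are cut from long single-stranded precursors, mostly begin with U, and come from one strand. Secondary piRNAs arise when a PIWI protein slices a target, which leaves A at position 10 and a 10-nt overlap between sequences on opposite strands. In testes before the pachytene stage, MILI also binds many piRNAs cut from messenger RNAs and from long noncoding transcripts. A long noncoding RNA is an RNA of gene length with no annotated protein. One of the 8, 1700020I14Rik, is listed by RefSeq as Oip5os1 with the synonym Cyrano, an RNA known for a highly complementary site for the microRNA miR-7 that leads to decay of that microRNA. Of the other 7, 6 have a RefSeq entry under the same symbol and Gm49654 was not matched.

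For each gene, the 5′ end with the most listed lengths is shown first. The list has no counts, so the number of lengths is the one sign of repeated finding, and it does not measure abundance. Each line gives the longest listed form of at most 30 nt, with its mm9 position, the first base in capitals and T standing for U.
1700001L05Rik, chr15:83184824-83184853, minus strand: Tgatctaacaagaaccagggcacctttctc
1700020I14Rik, chr2:119428117-119428146, plus strand: Taatgtctgaacagaagtgtggcttcccac
9330102E08Rik, chr6:128133043-128133072, minus strand: Tgagaccctgcagaacacatctcccttgag
Gm5113, chr7:30962834-30962863, plus strand: Tttcaagcaagtggaaacccctggaaaagt
Gm49654, chr12:82820679-82820708, minus strand: Tgggaactgaggagatgcctccatcgccac
1700029M20Rik, chr4:135185752-135185780, plus strand: Tgactcaagaattatcggccaacatgtgg
Gm2762, chr13:53489699-53489728, plus strand: Tactgtcaaatcctggacccggcagccgac
B230354K17Rik, chr17:45576316-45576345, plus strand: Tatgaatcagaagataggaaaaattcaaga
All 8 began with U. The end in 1700001L05Rik carried 9 different lengths, from 23 to 31 nt, at position 4393 of the longest transcript in exon 3. The end in 1700029M20Rik carried 8 lengths, from 22 to 29 nt, at position 2602 in exon 3, and that in 9330102E08Rik carried 8, from 23 to 30 nt, at position 750 in exon 1. The end in Gm2762 also carried 8 lengths, between 18 and 30 nt, and lay in an exon that the longest transcript does not hold. The ends in 1700020I14Rik and Gm49654 carried 7 lengths and those in Gm5113 and B230354K17Rik 6. For 6 of the 8 genes, other ends of the same gene held as many lengths, up to 7 ends in Gm49654, and the one nearest the 5′ end of the longest transcript was taken, except in Gm2762, where neither tied end lies on that transcript.

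The genes were chosen by their numbers of sequences, which are therefore given as a description. 1700001L05Rik had 3286 sense sequences, 1700020I14Rik 1313, 9330102E08Rik 1193, Gm5113 1178, Gm49654 1134, 1700029M20Rik 1001, Gm2762 995 and B230354K17Rik 942. Among 13374 long noncoding genes of the annotation they held places 2 and 6 to 12. Places 1 and 3 to 5 were taken by Gm49794 (5350 sequences), Gm10505 (2600), AU020206 (2000) and Gm21269 (1922). The genes that followed were Gm49774 with 726, Gm30132 with 702 and Gm43860 with 702. At least 1 sequence was assigned to 4632 of the 13374 genes, at least 10 to 1406 and at least 100 to 190.

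Set against length, the order of the genes changed. Density was counted as distinct sense 5′ ends divided by the length of the longest transcript in kb, so that a start found in several lengths counts once. 1700001L05Rik stood highest with 292 ends per kb (95% counting interval 277–307), followed by Gm49654 with 232 (213–253). Gm2762 had 174 (159–191), 1700029M20Rik 165 (151–180) and 9330102E08Rik 153 (141–166), and neighbours within these 3 were not separated by their intervals. Gm5113 had 128, B230354K17Rik 106 and 1700020I14Rik 86.4. The value of Gm2762 rests on the choice of transcript, because 111 of its 464 ends lay on exons that the longest of its 8 transcripts lacks. Divided by the union of all its exons (5476 nt), its density was 84.7 ends per kb, and counted on the longest transcript alone it was 132. On the union of exons B230354K17Rik had 84.6, or 107 with sequences kept that the assignment rule drops because they are antisense to Spats1. The other 5 genes moved by less on that union. 1700001L05Rik then had 237, within the counting interval of Gm49654, so that the first place was not separated from the second on that scale.

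**Figure D1:**
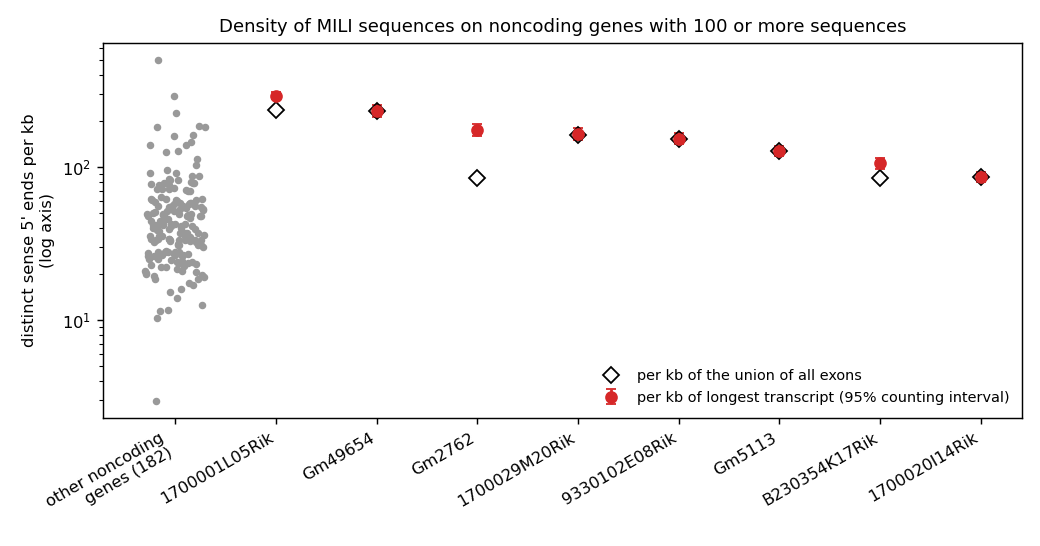
Distinct sense 5′ ends per kb on a log axis. Grey points are the 182 other long noncoding genes with 100 or more sequences, red points the 8 genes described here with their 95% counting intervals on the longest transcript, and open diamonds the same ends per kb of all exons; the red points lie between 86.4 and 292, and Gm2762 falls to 84.7 on all exons.

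The other 182 long noncoding genes with 100 or more sequences had a median of 41.5 ends per kb (5th to 95th percentile 17.6 to 140), and 5473 protein-coding genes with 100 or more had a median of 35.9 (14.8 to 110). The 8 genes were chosen by their numbers of sequences, so a density above that of other sets follows in part from the choice. Well-known long noncoding RNAs were less dense than any of the 8. Of a list of 27, 18 had 10 or more sequences and the median density was 3.64 ends per kb. Tug1 led with 642 sequences and 58.6 ends per kb, Malat1, an abundant nuclear RNA, had 493 and 49.7, and Xist, the RNA that silences the inactive X chromosome, had 12 and 0.669. The Tdrd9 mRNA had 137 sequences and 19.96 ends per kb. In MILI-bound RNA of bulk testis, fewer cells of a type, less RNA per cell and less binding by MILI cannot be told apart. Markers of germ cells had 10 or more sequences in 10 of 10 genes (median 58.4 ends per kb), against 2 of 8 for Sertoli cells (1.52), 1 of 6 for Leydig cells (0), 0 of 3 for peritubular myoid cells (0.491) and 1 of 6 for endothelium, blood and macrophages (0.903). No share over all protein-coding genes is set beside these counts, so they are a description only. In the Leydig list Star held 247 of 248 sequences.

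The sequences came from the sense strand of each noncoding RNA almost without exception. Over the 8 genes, 11042 of 11062 sequences were sense, or 99.8% (99.7–99.9%). 1700001L05Rik, 9330102E08Rik and Gm49654 had 0 antisense sequences, which allows a share of up to 0.0913%, 0.251% and 0.265% of their totals (3 sequences each). 1700029M20Rik and Gm2762 had 1 each, and 1700020I14Rik, Gm5113 and B230354K17Rik had 6 each. At least 95% of the sequences were sense in 8 of 8 genes, as in 85.8% of the 190 long noncoding genes with 100 or more sequences. The share therefore lies where most such genes lie.

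Opposite-strand pairs were few. Between the first and the last mm9 position of each gene's own sequences, pairs of 5′ ends overlapping by 10 nt numbered 4 over all 8 genes, whereas the remaining overlaps between 1 and 20 nt averaged 3.16 pairs (0 to 8). The ratio was 1.27, with a counting interval of 0.345 to 3.24, so that neither an excess nor its absence could be shown with so few pairs. B230354K17Rik held 2 of the 4 pairs, and Gm5113 and 1700029M20Rik 1 each. With 10 kb added on each side there were 9 pairs against a mean of 5.11.

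The lengths were those of the whole list, with somewhat more spread. Sense sequences of the 8 genes averaged 27.1 nt (SD 1.48 nt, 11042 sequences), and the list as a whole averaged 27.1 nt (SD 1.31 nt). The most frequent length was 27 nt in each of the 8 genes, from 25.96% of sequences in 1700001L05Rik to 28.9% in 1700020I14Rik. Lengths of 26 to 28 nt made up 70.5% (69.7–71.4%), against 77.0% of the whole list. Each 5′ end carried 2.05 sequences on average, against 1.42 in the whole list. The genes were chosen by their numbers of sequences, so the first value can be raised by the choice.

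U was the preferred first base on every one of the 8 RNAs, well above the U content of the RNA itself. Over all genes 67.4% of sense sequences began with U (66.5–68.3%), against 75.4% of the whole list. U made up 28.1% of the bases of the longest transcripts. The share was 74.5% (72.0–76.8%) in 1700020I14Rik, whose transcript is 30.9% U. Gm5113 had 70.2% (27.8% U in the transcript), Gm2762 69.0% (27.1%), 1700029M20Rik 68.3% (26.6%) and B230354K17Rik 67.4% (26.3%). Gm49654 had 67.1% (27.4%), 1700001L05Rik 64.4% (29.0%) and 9330102E08Rik 63.0% (60.2–65.8%; 25.8%). The first base exceeded the transcript's U content in 8 of 8 genes, as it did in 100% of the 190 long noncoding genes with 100 or more sequences. The margin, in percentage points, had a median of 41.4 in the 8 genes and of 48.9 in the other 182. Among the 20 other long noncoding genes at least as dense as 1700020I14Rik it was 37.4 (17.1 to 53.9). Across the 190 genes the margin was smaller where density was higher (Spearman's rho −0.482, a description over genes that share the same libraries).

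Seen from the transcript, a U served as a start several times as often as another base. Of the U positions of the 8 longest transcripts, 30.0% were the 5′ end of a listed sequence (29.1–30.9%), against 9.90% of A, 8.92% of C and 6.56% of G. In 1700001L05Rik, the gene with the most sequences, 49.2% of all U positions (706 of 1434) were used, and also 19.01% of A positions. Gm49654 followed with 47.1% of its U positions, whereas 1700020I14Rik used 18.3% and B230354K17Rik 20.96% (sequences shared with Spats1 left out). The order A, C, G among the other bases held in 6 of the 8 genes. In 1700020I14Rik C (5.16%) and A (4.95%) were alike, and in Gm2762 A, C and G lay between 6.76% and 7.23%, with overlapping intervals.

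**Figure D2:**
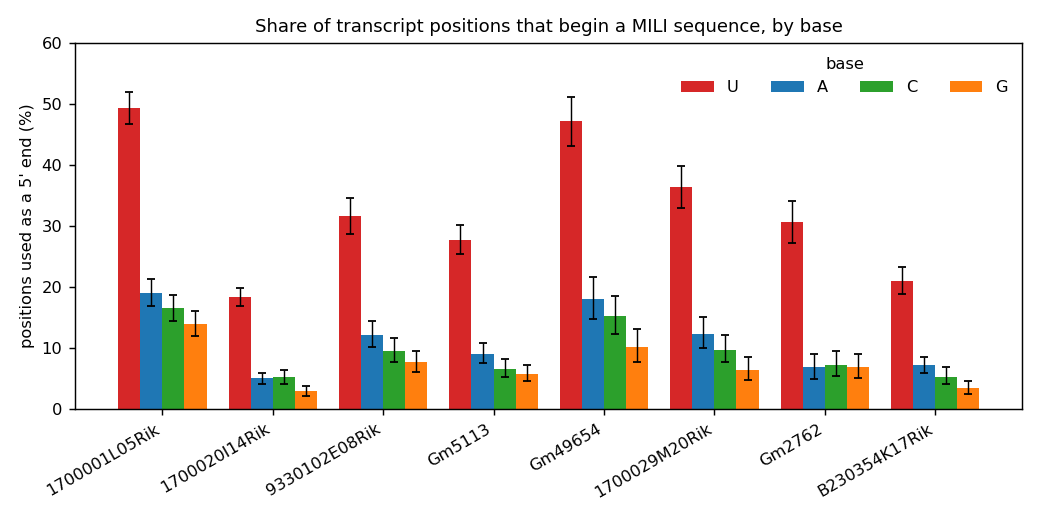
Percent of the positions of each longest transcript that are the 5′ end of a listed sense sequence, by base, with exact 95% intervals for counting error. In all 8 RNAs the bar for U, from 18.3% to 49.2%, stands above those for A, C and G.

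Starts found in more lengths were more often U. Of the 5398 ends, 2706 carried 1 sequence and began with U in 45.2% of cases (43.3–47.1%). The share was 57.6% for ends with 2 sequences, 71.6% for 3 and 85.1% (82.5–87.4%) for the 832 ends with 4 or more. Counted by end, 57.5% of starts were U, below the 67.4% counted by sequence. The share also differed with length: it was 66.6% at 25 nt (63.3–69.7%), 62.6% at 26 nt (60.6–64.6%), 65.0% at 27 nt, 67.7% at 28 nt, 73.4% at 29 nt and 78.7% at 30 nt (74.7–82.3%). Read numbers behind each sequence are not in the list, so abundant and rare starts could not be told apart.

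Position 10 did not stand out. A at position 10 was carried by 29.6% of sense sequences (28.8–30.5%), against 31.7% of the whole list and 26.4% A in the transcripts. It lay above the transcript's A content in 8 of 8 genes, as in 86.8% of the 190 long noncoding genes, with margins from 0.767 percentage points in B230354K17Rik to 7.34 in Gm5113. Sequences of at least 24 nt had A at positions 11, 12 and 13 in 29.7%, 29.7% and 29.9% of cases, and most often at position 5, in 36.5%. Among sequences that began with another base than U the tenth was A in 31.1% (29.6–32.7%), and among those beginning with U in 28.9% (27.8–29.9%).

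The base after the 3′ end was examined because stepwise cleavage, in which the next cut falls before a U, leaves U directly after the cut piece. The U directly follows the piRNA only where its 3′ end is not trimmed afterwards. U followed 27.4% of the sense sequences (26.6–28.3%), close to the 28.1% U of the transcripts. It lay above the transcript's U content in 3 of 8 genes (Gm49654 by 1.86 percentage points, 1700029M20Rik by 1.11 and 9330102E08Rik by 0.0041, each within its counting interval), as in 39.5% of the 190 long noncoding genes. After sequences with a 5′ U it was 28.7% (27.6–29.7%), and after the others 24.9% (23.5–26.4%). It was 25.2% for sequences of 26 nt and 29.9% for those of 29 nt. A 5′ end lay directly after a 3′ end 1277 times, against a mean of 1247 at distances of 2 to 20 nt (1178 to 1303), a ratio of 1.02 (0.969 to 1.08). Neither measure showed an excess over the background used here, the U content of the transcripts or the distances of 2 to 20 nt. Within sequences of at least 24 nt U was less frequent, at 22.3% to 23.7% over positions 13 to 24. Trimming of 3′ ends was not measured, so whether cleavage was stepwise was not tested.

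Wide coverage follows in part from choosing the genes by their numbers of sequences, and coverage of other genes was not measured. The sequences covered most of each RNA. Together they covered 78.1% of the 34977 nt of the longest transcripts. Coverage ran from 58.3% in B230354K17Rik and 65.3% in 1700020I14Rik to 94.96% in Gm49654 and 97.2% in 1700001L05Rik. Sequences that B230354K17Rik shares with Spats1 are left out of its value. In 1700001L05Rik the longest stretch without a sequence was 30 nt. Its ends were fewer near the 5′ end: of 5 equal parts of the transcript, the first held 12.9% of them and the last 24.3%. 9330102E08Rik was the most even, with 17.7% to 22.6% of ends in each such part. 1700020I14Rik was fuller at both ends of the RNA, with 25.9% in the first part and 25.8% in the last, against 12.97% and 13.4% in the second and the third.

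**Figure D3:**
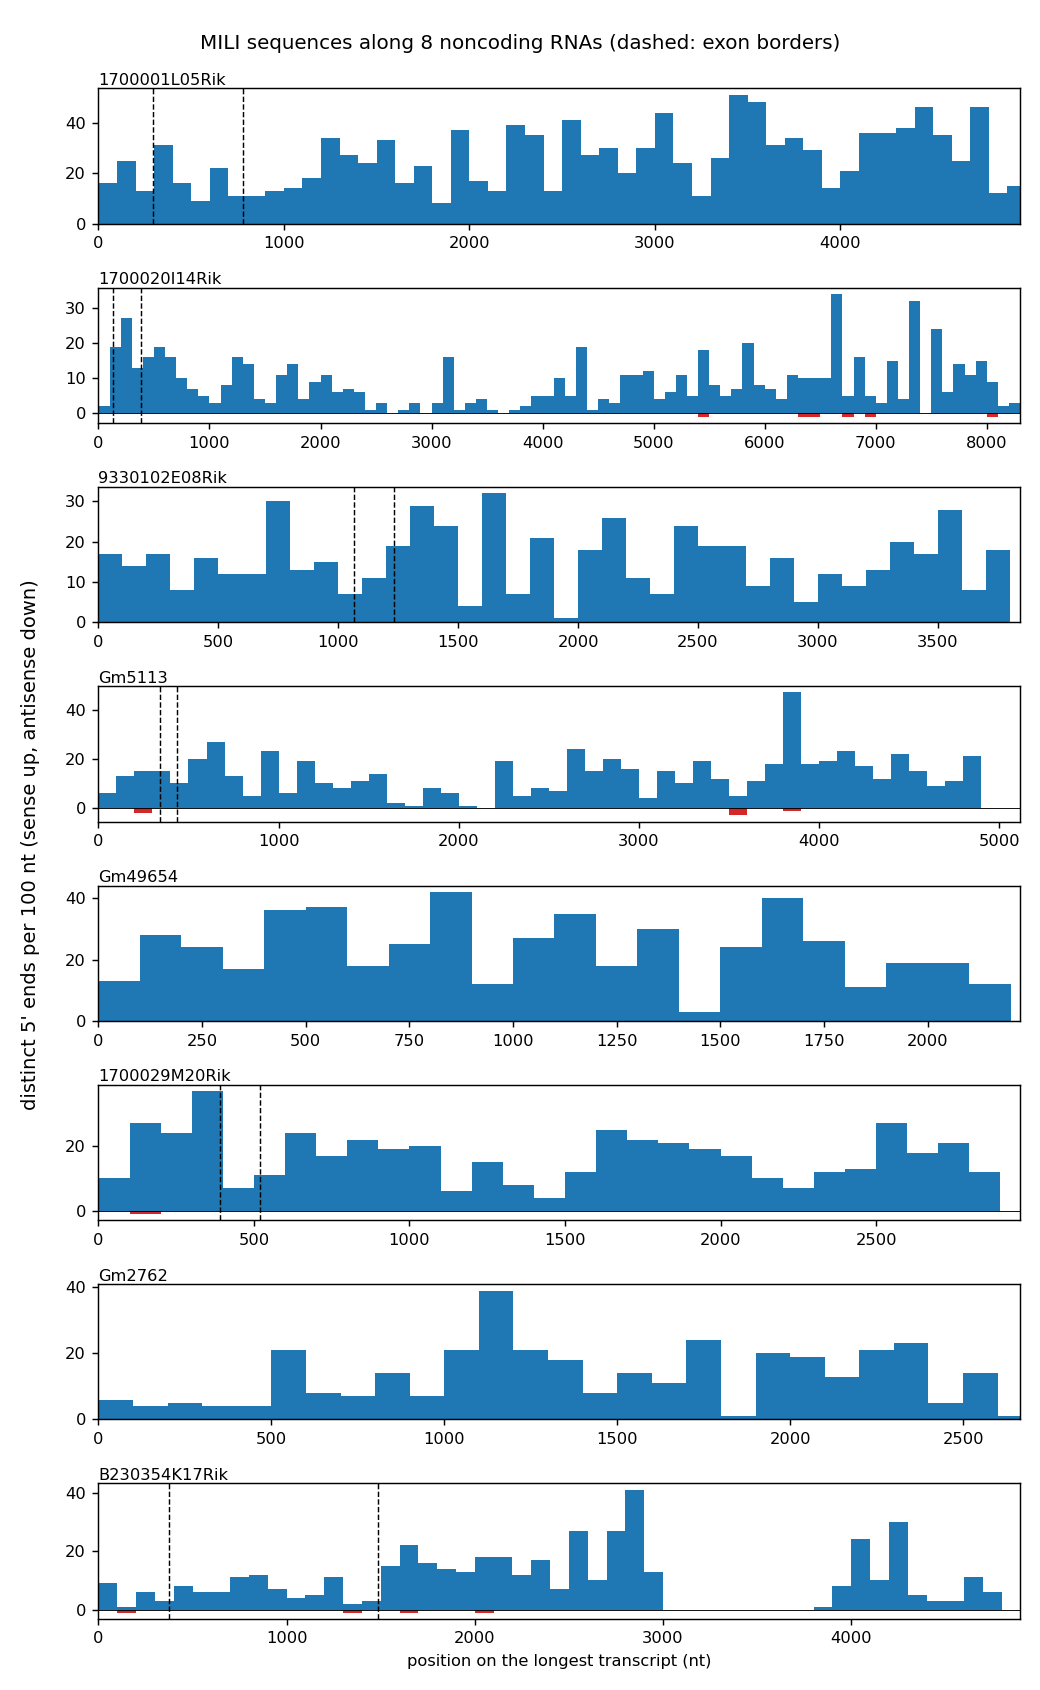
Distinct 5′ ends in successive 100-nt stretches of the longest transcript of each gene, sense upward in blue and antisense downward in red, with dashed lines at exon borders. Sense ends run through all exons of each RNA, and the empty stretch of B230354K17Rik (2954 to 3899) is where sequences also match Spats1.

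The last exon held most of the sequences in each of the 6 genes whose longest transcript has 3 exons, and it is also by far the longest exon. It held 93.3% of the sequences in Gm5113, 91.5% in 1700001L05Rik, 91.0% in 1700020I14Rik, 83.1% in B230354K17Rik, 77.6% in 1700029M20Rik and 71.2% in 9330102E08Rik. Per kb the exons differed in another way. Exon 2 of 1700020I14Rik had 209 ends per kb on 253 nt, against 83.4 in its 7915-nt last exon. Exon 1 of 1700029M20Rik had 251 ends per kb against 156 in exon 3, and the fullest 100 nt of the gene (positions 267 to 366, 52 ends) lay in it. In 1700001L05Rik exon 3 was denser than exons 1 and 2 (275 against 174 and 173), and in B230354K17Rik exon 3 had 109 against 50.5 and 65.9. Gm49654 is annotated as a single exon, as is the longest transcript of Gm2762. Of all sense sequences on the longest transcripts, 4 crossed an exon border, in 1700001L05Rik, 1700020I14Rik and 9330102E08Rik. The list gives each sequence a start and an end on the genome, so sequences across a spliced border may be missing from it. Splicing was therefore not tested by this count.

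Among alternative transcripts the long forms held most sequences, which can follow from their length. Ends per kb did not rank the forms by length. The 1381-nt form of 1700020I14Rik had 97.8 ends per kb against 86.4 in the 8300-nt form. In 1700001L05Rik the shorter forms had 159, 162 and 239 against 259 in the 4969-nt form. In 1700020I14Rik all 1313 sense sequences matched the 8300-nt transcript and 1031 matched it alone, whereas the 1381-nt form had 0 of its own. In 1700001L05Rik 2561 sequences were found in the 4969-nt form alone and 122 in the 2270-nt form alone. In B230354K17Rik 200 were found in the longest form alone and 82 in the 2578-nt form alone. In Gm2762 the single-exon form of 2665 nt held 740 of 995 sequences, 678 of them in no other form.

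Within 1700020I14Rik (Cyrano) the miR-7 site was free of MILI sequences. The mature miR-7a-5p (RefSeq, GRCm38.p6) is shown with its seed, bases 2 to 8, in capitals, and below it the stretch of the 8300-nt transcript that pairs with it, with the match to the seed in capitals.
mmu-miR-7a-5p: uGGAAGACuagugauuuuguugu
site at positions 2935 to 2959: acaacaaaatcaccaatGTCTTCCa
The site lay in exon 3 and differed from the full complement of the 23-nt microRNA by 3 edits. No sequence overlapped these 25 nt. The stretch without any sequence around it ran from position 2914 to 3011 (98 nt), and 1 end lay within 50 nt of the site. For miR-7b-5p the site ran from 2934 to 2959 and differed from the full complement by 2 edits, again with no overlapping sequence. The transcript holds 2 matches to the seed, and only the match within this site is described here. In this RNA 34.7% of the transcript was uncovered, in 90 separate stretches with a median of 20.5 nt, and 17% of all 25-nt windows had no sequence. The stretch at the site was among the longer ones: 4 of the 90, itself included, were at least 98 nt long, and the longest lay elsewhere, from 3585 to 3769. The start of the gene shown above lay 3′ of the site at position 3179, and the densest 100 nt of the gene, with 37 ends, were positions 186 to 285.

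Part of the 34977 nt, 13.3%, lay in 20-mers that also occur in a transcript of another gene on either strand, where the assignment rule itself can leave sequences out, so that its coverage is not compared with the rest. B230354K17Rik had the largest part of this kind (44.7% of the transcript). Its longest uncovered stretch, 946 nt from position 2954 to 3899, consisted of such sequence, and 261 listed sequences did lie there but were antisense to Spats1 as well, which the assignment rule leaves out. B230354K17Rik is annotated as sharing a bidirectional promoter, overlaps Cdc5l on the opposite strand, and had 2 sequences antisense to Cdc5l. In Gm5113 shared sequence made up 24.4% of the transcript and 79.4% of the last 218 nt, which had no sequence. In the 185-nt uncovered stretch of 1700020I14Rik there was none. The 8 RNAs were not related to each other in sequence: of 28 pairs of genes 0 shared a 20-mer on the same strand, and 1 pair, Gm5113 and B230354K17Rik, shared 4 on opposite strands.

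On the genome the 8 genes differed in how many sequences lay outside their annotated exons and in the flanks. In the mm9 spans, from the first to the last position of each gene's own sequences, 12925 of 12966 sequences (99.7%) lay on the strand of the gene, and 87.4% of these (86.9–88.0%) matched its transcripts. The spans were chr15:83184293-83197712 for 1700001L05Rik (minus strand), chr2:119420137-119433199 for 1700020I14Rik (plus), chr6:128119749-128133802 for 9330102E08Rik (minus) and chr7:30954915-30967125 for Gm5113 (plus). They were chr12:82818817-82821009 for Gm49654 (minus), chr4:135182621-135186078 for 1700029M20Rik (plus), chr13:53489028-53550745 for Gm2762 (plus) and chr17:45570849-45579394 for B230354K17Rik (plus). Gene-strand sequences matched the gene's own transcripts in 99.2% of cases in 1700020I14Rik and Gm5113, 97.9% in 1700029M20Rik, 93.3% in B230354K17Rik (sequences shared with Spats1 included) and 91.8% in 1700001L05Rik. In 1700001L05Rik 295 gene-strand sequences lay outside the exons, at 24.6 ends per kb against 237 on its exons, and the fullest kb outside held 54 ends. Outside the exons there were 25.3 ends per kb in 1700029M20Rik (over 434 nt), 24.5 in B230354K17Rik (2410 nt), 11.1 in 9330102E08Rik (10211 nt) and 11.3 in Gm2762 (56242 nt). Of the sequences of 1700001L05Rik outside its exons, 82.7% began with U, against 64.4% on the exons. The U content of the genome between the exons was not measured.

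Gm49654 lay inside a longer run of sequences. It is annotated 958 nt after the end of Map3k9, a mitogen-activated kinase kinase kinase gene on the same strand. The kb directly before its first sequence held 212 ends on the gene strand, all 212 without a transcript match. The first 2 kb of the span held 264 and 230 ends, and the part after the annotated RNA held 220, 163 and 205 ends in successive kb. The next kb fell to 14, and the one after it held 0. In the 10 kb downstream 1256 gene-strand sequences were listed, of which 100% had no transcript match, more than the 1134 of Gm49654 itself. In the 10 kb upstream there were 898, of which 444 belonged to Map3k9. On the opposite strand the 2 flanks together held 1 sequence. The share with a 5′ U was 67.1% in Gm49654, 68.7% downstream and 68.2% upstream.

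9330102E08Rik followed a denser stretch on the same strand. The 10 kb upstream held 2764 gene-strand sequences at 1347 ends (135 ends per kb), against 1193 sequences in the gene, and 0 on the opposite strand. Of these, 1280 were antisense to the processed pseudogene Gm18609, 465 were sense to the noncoding gene Gm10010 and 1222 had no transcript match, with some sequences matching both genes. The kb before the first sequence of 9330102E08Rik held 122 ends, all unmatched, and exon 1 then held 146 ends per kb. Between exons 2 and 3 there were 4 to 25 unmatched ends per kb from the third to the ninth kb of the span and 1 and 0 in the next 2 kb, and exon 3 held 158 ends per kb. The 10 kb after the gene held 148 gene-strand sequences.

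Gm2762 had as many gene-strand sequences outside its annotated exons as on them. Its span of 61718 nt held 2034 gene-strand sequences, of which 995 (48.9%, 46.7–51.1%) matched its transcripts and 1007 matched no transcript. The unmatched ends were densest between 4 and 7 kb from the first sequence, with 54, 111 and 83 ends in the 3 kb, directly before the exon that carried most matched ends (157 and 154 in the kb that followed). Between 10 and 48 kb values were lower, at up to 27 ends per kb, with no ends between 14 and 17 kb. The flanks were nearly empty, with 2 gene-strand sequences in the 10 kb upstream and 40 downstream.

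**Figure D4:**
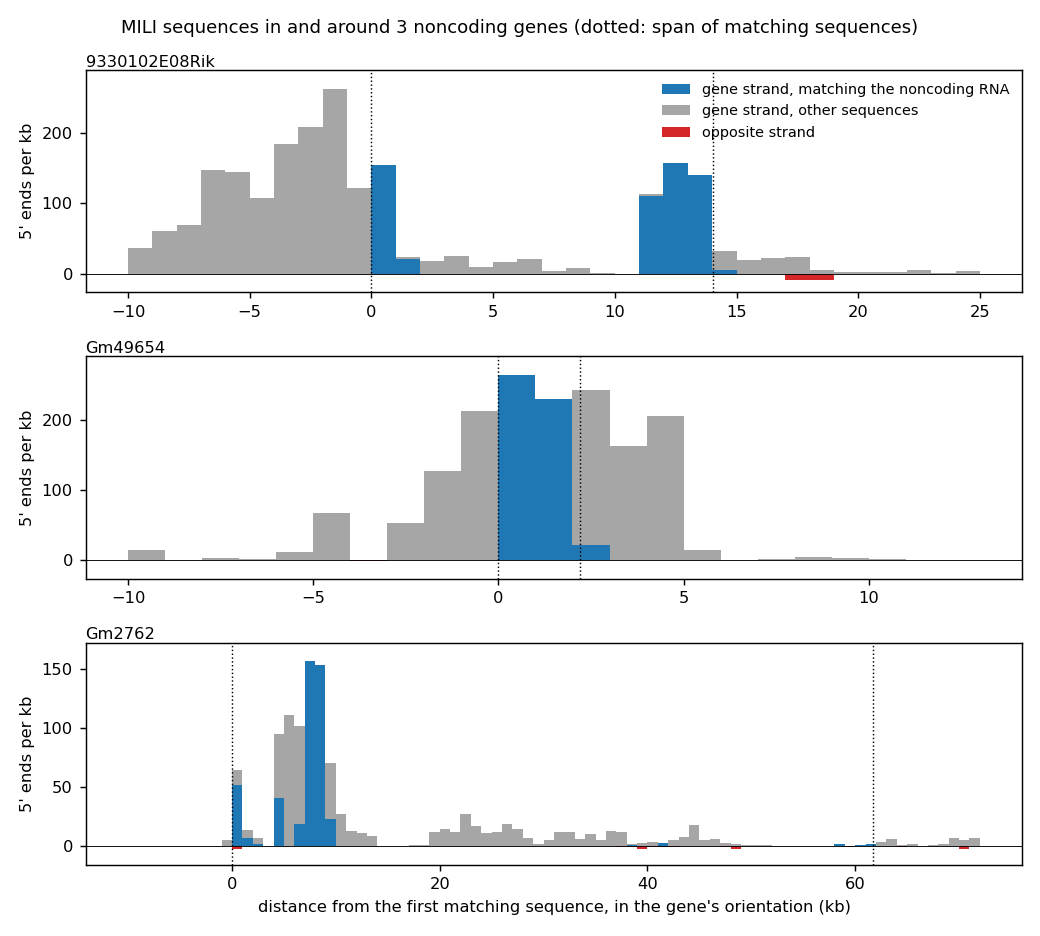
Distinct 5′ ends per kb by distance from the first matching sequence in the gene's orientation, with ends that match the noncoding RNA in blue, other ends on the same strand stacked in grey and ends on the opposite strand downward in red. Grey bars flank Gm49654 on both sides, precede 9330102E08Rik, and lie between the blue bars of Gm2762.

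The flanks of the remaining 5 genes held at most 132 sequences each on the strand of the gene. 1700001L05Rik had 132 gene-strand sequences in the 10 kb upstream and 76 downstream, B230354K17Rik had 14 and 81, and 1700029M20Rik had 37 and 3. Upstream of 1700029M20Rik a further 82, without a transcript match, lay on the opposite strand. Gm5113 had 5 upstream and 47 downstream, of which 34 were sense to Cox7a1, a respiratory chain subunit gene. Gm5113 begins 125 nt from Zfp146, a zinc finger gene on the opposite strand that had 212 sequences, 66.04 ends per kb and all of them within the 10 kb upstream. 1700020I14Rik had 67 upstream, all of them sense to Chp1, which encodes a calcineurin B homologous protein, and 9 downstream. There, 48 of the 62 opposite-strand sequences were sense to Oip5, a centromere protein gene. Of the protein-coding genes within 50 kb on either strand, those with the most sequences were Exd1 (742), a piRNA pathway gene 46670 nt from 1700020I14Rik on the opposite strand, and Map3k9 (710). Near 1700001L05Rik it was Pacsin2 with 155, and near Gm2762 Sptlc1 with 57, a subunit gene of serine palmitoyltransferase.

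Almost all sequences were placed at the gene itself. Of 11062 sequences, 1 lay elsewhere: a sequence of 1700020I14Rik on another chromosome. Sequences whose first 20 nt recurred at a second listed position made up 0.534% of the sense sequences (0.407–0.689%), against 0.841% of the whole list.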

How the data were processed

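Per the file headers, the deposited list has 5 columns (sequence, chromosome, start, end, strand). Its genome build is mm9, per the submitters' processing notes, whereas no source used here names the aligner or the filters. It holds positions and no counts, so the planned count test of the genotypes was not run. The 8 genes and the lists were chosen with earlier results of these data known. Named genes follow a written rule: the 8 genes, large noncoding genes and neighbours in rank, a list of well-known long noncoding RNAs, cell type markers, and the fullest protein-coding neighbours within 50 kb. Genes matched in the 10 kb flanks, Spats1 and the miR-7 site were picked with their values in view.

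Each listed sequence was matched, whole and exactly, to 141767 transcripts of GENCODE M21 (GRCm38), both strands. No coordinate was converted, and distances between genes are lengths on GRCm38. A span took sequences within 200 kb of the median position on the gene's chromosome. On simulated data the matching step found 500 of 500 planted sequences and 0 of 500 with a changed last base. Densities are described with exact Poisson 95% intervals and shares with exact Clopper-Pearson intervals. Tools were numba 0.67.0, pandas 2.3.3, numpy 2.4.6, Biopython 1.88, scipy 1.17.1 and matplotlib 3.10.9 under Python 3.11.15.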

Additional observations from a re-analysis of the deposited data

How the results depend on the processing

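No paired analysis was possible because the list names no library, and for the same reason no replicate could be left out and the replicate block planned for the genotypes was not run. With sequences of 28 to 30 nt only, the 8 genes had 4450 sequences in place of 11062, a 5′ U in 70.8% in place of 67.4%, A at position 10 in 31.3% in place of 29.6%, and 88.2% in place of 87.4% of gene-strand sequences in the spans matched the transcripts. Counting distinct ends gave 5418 ends, 99.6% of them sense, and a 5′ U in 57.5%. Without 1700001L05Rik the 5′ U share was 68.6%. Spans widened by 10 kb lowered the matching share to 61.1%. The median density of 159 ends per kb became 324 when sequences per kb were counted. The other 32 alternatives for the main results stayed within the counting interval, within 1.5 times the main count or, for the median density, within 1 SD over genes. On the shortest transcript with a sequence, B230354K17Rik had 36.6 ends per kb. Densities on all exons were added after the data were seen. The list gives no depth, so a sequence missing from it is not shown to be absent.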
